A study of Rattus norvegicus with 20 samples.

Results

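The genes of the tumour necrosis factor (TNF) superfamily and of its receptors were taken from the count table by gene name: every row named Tnfsf or Tnfrsf with a number, together with Tnf, Lta, Ltb, Ltbr, Cd27, Cd40, Cd40lg, Fas and Faslg. The rule found 41 of 32545 rows, with 38 gene symbols, of which 16 are ligands in 19 rows and 22 are receptors in 22 rows. RNA was sequenced from inguinal white adipose tissue (iWAT), a subcutaneous fat depot, of 20 male rats, 5 per group. The groups were Cmpd 1, Food matched, Obese and Lean. All rats ate Purina 5008 chow and were about 32 weeks old at the end of a 10-week study. Cmpd 1 animals were ZSF1 obese rats whose chow held Cmpd 1, an ATP-competitive inhibitor of the protein kinases PKCα and PKCβ, at a dose of about 50 mg per kg body weight per day. Food matched animals were ZSF1 obese rats on drug-free chow limited to the amount that the Cmpd 1 group had eaten in the week before, and Obese animals were ZSF1 obese rats on drug-free chow without that limit. ZSF1 obese rats carry 2 leptin receptor mutations, a Lepr fa allele from one parent strain and a Lepr cp allele from the other, and overeat. Lean animals were ZSF1 littermates without this pair of alleles. Food matched rats carry a phenotype label of lean in the deposited record, which their sample titles contradict, and they are treated as obese here. Obese versus Lean is the disease comparison, and Cmpd 1 versus Food matched sets the drug against approximately matched food intake.

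TNF superfamily ligands are trimeric proteins on the cell surface, many of which proteases release, and each binds a particular set of receptors. The receptors recruit TRAF adaptor proteins, which activate NF-kappa B and MAP kinases, and those that carry a death domain can also start caspases. In adipose tissue the family is best known for TNF, which macrophages of obese fat release and which lowers insulin sensitivity and lipid storage in adipocytes. Other members regulate T cells, B cells, bone resorption and tissue repair.

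Values are given as RPKM, reads scaled by gene length and by TMM-scaled library size, so that genes of different length can be compared. A gene was called a differentially expressed gene (DEG) where edgeR's quasi-likelihood test gave it more than a 1.5-fold difference together with a Benjamini-Hochberg adjusted p under 0.05, over 17653 genes. Libraries held 31716457 to 65759306 counted reads in Cmpd 1, 54649679 to 74784655 in Food matched, 56743417 to 70206686 in Obese and 50604956 to 68048796 in Lean rats, and Cmpd 1 rat 4 was the shallowest. The adipocyte hormone gene Adipoq was at 2032 to 2535 RPKM in Cmpd 1, 1354 to 1857 RPKM in Food matched, 1705 to 2180 RPKM in Obese and 3096 to 3454 RPKM in Lean rats. Its ranges did not overlap in Obese versus Lean or in Cmpd 1 versus Food matched. The part of this difference in the results on the family was not tested. Lepr was at 0.311 to 0.377 RPKM in Cmpd 1, 0.327 to 0.537 RPKM in Food matched and 0.288 to 0.438 RPKM in Obese rats, below all Lean rats (0.686 to 2.78 RPKM). Some libraries, most of them of Lean rats, held transcripts of other tissues. Acta1 of skeletal muscle was at 502 and 858 RPKM in Lean rats 1 and 2 and at most 14.4 RPKM in the other libraries. The epithelial gene Epcam was at 13.4 RPKM in Lean rat 2 and 3.88 RPKM in Lean rat 5, and Fabp1 of gut and liver was at 85.6 RPKM in Lean rat 5. Outside the Lean group, the gland gene Scgb2a1 was at 33.9 RPKM in Obese rat 4 and at most 1.10 RPKM in the other libraries. Most DEG calls of members against Lean rats are therefore also given without Lean rats 1, 2 and 5. Fold changes against Lean rats under 1.5-fold, and those of pathway and marker genes, are mostly given with all 5 Lean rats only. Obese rat 4 was left out only in the fits that leave out each rat in turn.

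Promoter sequences were taken from RefSeq for the receptor pair Tnfrsf1b and Tnfrsf8, which lie side by side and differed in opposite directions between Obese and Lean rats, and for the 4 members that were lower in Cmpd 1 than in Food matched rats. Each is 300 bases of the rat GRCr8 build, 250 before the transcription start and 50 after it, and capitals mark a motif match.
Tnfrsf1b (chr5:162387362-162387661, minus strand): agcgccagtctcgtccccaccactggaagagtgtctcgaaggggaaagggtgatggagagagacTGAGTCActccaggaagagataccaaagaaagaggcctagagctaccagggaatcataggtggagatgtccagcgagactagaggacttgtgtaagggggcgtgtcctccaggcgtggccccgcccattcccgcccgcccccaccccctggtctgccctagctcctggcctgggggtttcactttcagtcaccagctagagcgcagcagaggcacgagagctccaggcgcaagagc
Tnfrsf8 (chr5:162451571-162451870, minus strand): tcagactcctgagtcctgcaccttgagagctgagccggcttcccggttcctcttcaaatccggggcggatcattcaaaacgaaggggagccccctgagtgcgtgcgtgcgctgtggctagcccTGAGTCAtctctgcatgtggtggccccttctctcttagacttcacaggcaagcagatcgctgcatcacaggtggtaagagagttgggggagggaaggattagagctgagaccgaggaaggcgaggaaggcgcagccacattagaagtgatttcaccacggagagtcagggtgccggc
Tnfsf18 (chr13:76366603-76366902, plus strand): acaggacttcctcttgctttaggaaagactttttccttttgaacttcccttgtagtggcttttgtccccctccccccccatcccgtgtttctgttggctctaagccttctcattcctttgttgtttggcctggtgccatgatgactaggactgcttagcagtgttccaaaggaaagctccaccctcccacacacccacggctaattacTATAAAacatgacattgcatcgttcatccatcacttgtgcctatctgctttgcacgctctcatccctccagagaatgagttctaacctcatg
Tnfrsf12a (chr10:13213599-13213898, minus strand): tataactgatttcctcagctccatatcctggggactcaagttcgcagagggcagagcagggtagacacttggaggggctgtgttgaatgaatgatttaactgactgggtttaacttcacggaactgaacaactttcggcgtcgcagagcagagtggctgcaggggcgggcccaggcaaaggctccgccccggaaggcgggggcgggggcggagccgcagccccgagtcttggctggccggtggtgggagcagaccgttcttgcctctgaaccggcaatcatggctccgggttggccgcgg
Tnfsf8 (chr5:82292809-82293108, minus strand): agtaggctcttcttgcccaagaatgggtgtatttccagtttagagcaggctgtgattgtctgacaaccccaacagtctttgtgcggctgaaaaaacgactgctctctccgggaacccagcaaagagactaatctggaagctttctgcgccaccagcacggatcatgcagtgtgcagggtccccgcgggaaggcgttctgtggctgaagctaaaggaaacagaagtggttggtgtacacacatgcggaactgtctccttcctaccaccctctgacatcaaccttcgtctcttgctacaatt
Tnfrsf9 (chr5:166664244-166664543, plus strand): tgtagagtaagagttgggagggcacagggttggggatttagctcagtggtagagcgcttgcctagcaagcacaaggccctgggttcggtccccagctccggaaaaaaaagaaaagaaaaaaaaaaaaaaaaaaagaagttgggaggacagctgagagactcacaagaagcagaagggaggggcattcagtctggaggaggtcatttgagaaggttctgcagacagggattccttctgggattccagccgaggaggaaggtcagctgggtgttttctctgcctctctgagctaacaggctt
Capitals in Tnfrsf1b and Tnfrsf8 mark the AP-1 motif TGANTCA and in Tnfsf18 the TATA box motif TATAAA. AP-1 is a transcription factor of Fos and Jun proteins through which phorbol esters, activators of PKC, are known to act. Both strands were searched in the 28 of 38 member symbols that matched the RefSeq promoters. The AP-1 letters were in 3 member promoters (Fas, Tnfrsf1b and Tnfrsf8) and in 7.33% of all 27457 rat promoters of this length. TATAAA was in 7 member promoters (Tnf, Lta, Faslg, Tnfsf11, Tnfsf15, Tnfsf18 and Tnfrsf17) and in 14.3% of all. The NF-kappa B motif (GGGA, any base, TTTCC) was in 1 member promoter, that of Ltb, and in 0.371% of all. No member promoter held more than 1 of these 3 motifs. Tnfrsf12a, Tnfsf8 and Tnfrsf9 held none of them in this window.

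Of the 41 rows 34 passed the filter on reads and were tested, 13 of ligands and 21 of receptors. A gene was left out if 10 or more of the 20 libraries had no read. The 7 rows left out are those of Tnf, Ltb and Tnfsf11, with 2 rows each, and that of Tnfrsf17. Tnf, the founding ligand, had 2 rows on chromosome 20 of the rn6 build, at 4855829 to 4858447 on the plus strand and at 5189390 to 5192000 on the minus strand. Rat by rat, the reads on the first copy were 0, 0, 0, 1 and 0 in Cmpd 1 rats, 0, 0, 0, 0 and 0 in Food matched rats, 0, 0, 1, 3 and 2 in Obese rats and 1, 0, 1, 0 and 0 in Lean rats, 9 in all. The reads on the second copy were 3, 0, 0, 0 and 0 in Cmpd 1 rats, 1, 0, 5, 2 and 0 in Food matched rats, 0, 0, 0, 1 and 0 in Obese rats and 0, 0, 1, 1 and 0 in Lean rats, 14 in all. No library held more than 5 reads on either copy. The lymphotoxin gene Ltb also had 2 rows, with 24 and 21 reads, and Tnfsf11, the ligand RANKL that drives osteoclast formation, had 2 rows with 0 reads in every library. Only uniquely mapped reads were counted, so a read that fits both copies of a doubled gene equally is in neither row. The number of such reads was not given in the files, and no level of Tnf, Ltb or Tnfsf11 was read from these rows. Tnfrsf17, a B cell receptor for Tnfsf13 and Tnfsf13b, is listed once and had 15 reads in all.

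Over the rows as counted, receptor transcripts were more abundant than ligand transcripts in every group. The ligand sums take in the doubled rows of Tnf, Ltb and Tnfsf11, from which no level was read, so they are lower bounds. Summed over the family, receptors reached 221 ± 9.51 RPKM in Cmpd 1, 243 ± 16.2 RPKM in Food matched, 229 ± 10.49 RPKM in Obese and 196 ± 11.96 RPKM in Lean rats (SD, n = 5). The ligand sums were 96.0 ± 8.39 RPKM in Cmpd 1, 93.99 ± 7.78 RPKM in Food matched, 91.4 ± 4.91 RPKM in Obese and 91.2 ± 5.99 RPKM in Lean rats (SD, n = 5). Of the ligand sum 84.6% to 90.0% came from Tnfsf12, Tnfsf10 and Tnfsf13, the ligands TWEAK, TRAIL and APRIL. Ltbr and Tnfrsf1a were the most abundant receptors in all groups. Their ranges did not overlap in Cmpd 1 rats, whereas in Food matched, Obese and Lean rats they did. Below them no receptor or ligand reached the Tnfrsf1a range in any group. At the other end the 4 tested members Lta, Tnfsf4, Tnfrsf13b and Tnfrsf13c averaged under 10 reads per library, with 35, 39, 32 and 47 reads over all libraries, and none of them passed a test. Lta overlaps other annotated genes in position, also on its own strand, as do the first rows of Tnf and Ltb. How reads in such overlaps were counted is not given in the sources used here, so their low counts may understate these genes.

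**Figure D1:**
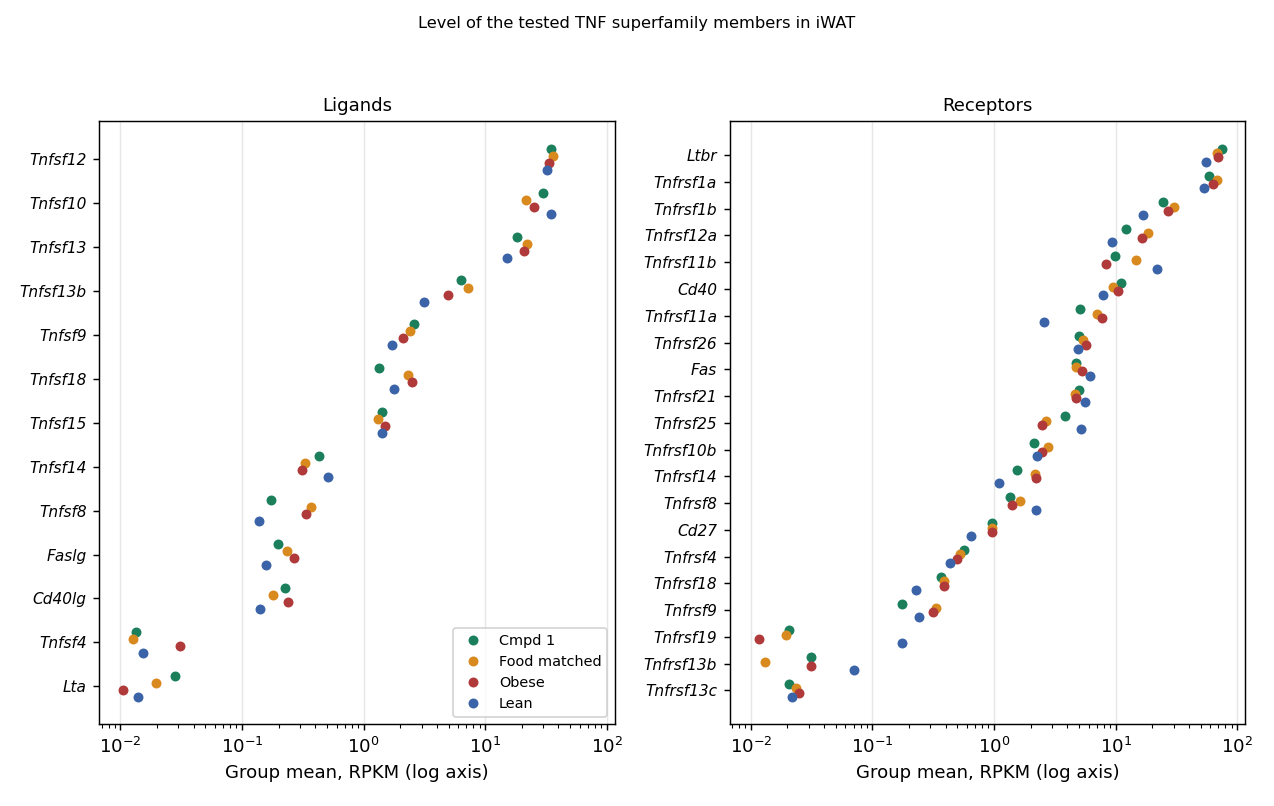
Mean RPKM of each tested ligand (left) and receptor (right) in the Cmpd 1, Food matched, Obese and Lean groups, on a log axis, with genes in order of their mean over all libraries (each point is the mean of 5 rats). Ltbr and Tnfrsf1a sit at the top of the receptors and Tnfsf12, Tnfsf10 and Tnfsf13 at the top of the ligands, and Tnfrsf19 is the receptor whose Lean mean stands farthest from the others.

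Over the 4 groups 21 of the 34 tested members differed at an adjusted p under 0.05 (edgeR F test), beside 54.6% of all genes tested. In Obese versus Lean rats 11 members (32.4%) were DEGs, 7 higher and 4 lower, beside 22.3% of all genes (11.3% higher and 11.0% lower). Before adjustment 22 members (64.7%) had a p under 0.05, beside 53.9% of all genes. The higher ones were Tnfrsf11a, Tnfrsf1b, Tnfrsf14, Tnfrsf12a, Tnfsf8, Tnfrsf18 and Tnfsf13b, and the lower ones Tnfrsf25, Tnfrsf19, Tnfrsf11b and Tnfrsf8. In Cmpd 1 versus Food matched rats 4 members (11.8%) were DEGs, beside 6.19% of all genes. All 4 were lower with Cmpd 1, namely Tnfsf18, Tnfrsf12a, Tnfsf8 and Tnfrsf9, and 0 were higher (2 at an adjusted p under 0.05 with a smaller fold, 0 DEGs by limma-voom and by DESeq2), beside 4.65% lower and 1.54% higher of all genes. At an unadjusted p under 0.05 there were 13 members (38.2%), beside 33.8% of all genes. The median log2 fold change of the 34 members was 0.27 for Obese versus Lean and −0.06 for Cmpd 1 versus Food matched, and that of all genes −0.01 and 0.01. Without Lean rats 1, 2 and 5 the Obese versus Lean count was 4 higher and 3 lower. Without Food matched rat 1 only 1 member was lower with Cmpd 1, without Cmpd 1 rat 2, 3 or 4 there were 2, and limma-voom called 2. The share of all genes called in these other fits is not given here. Fewer rats also lower the power of the test, so these counts cannot show whether the members are less stable than other genes.

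**Figure D2:**
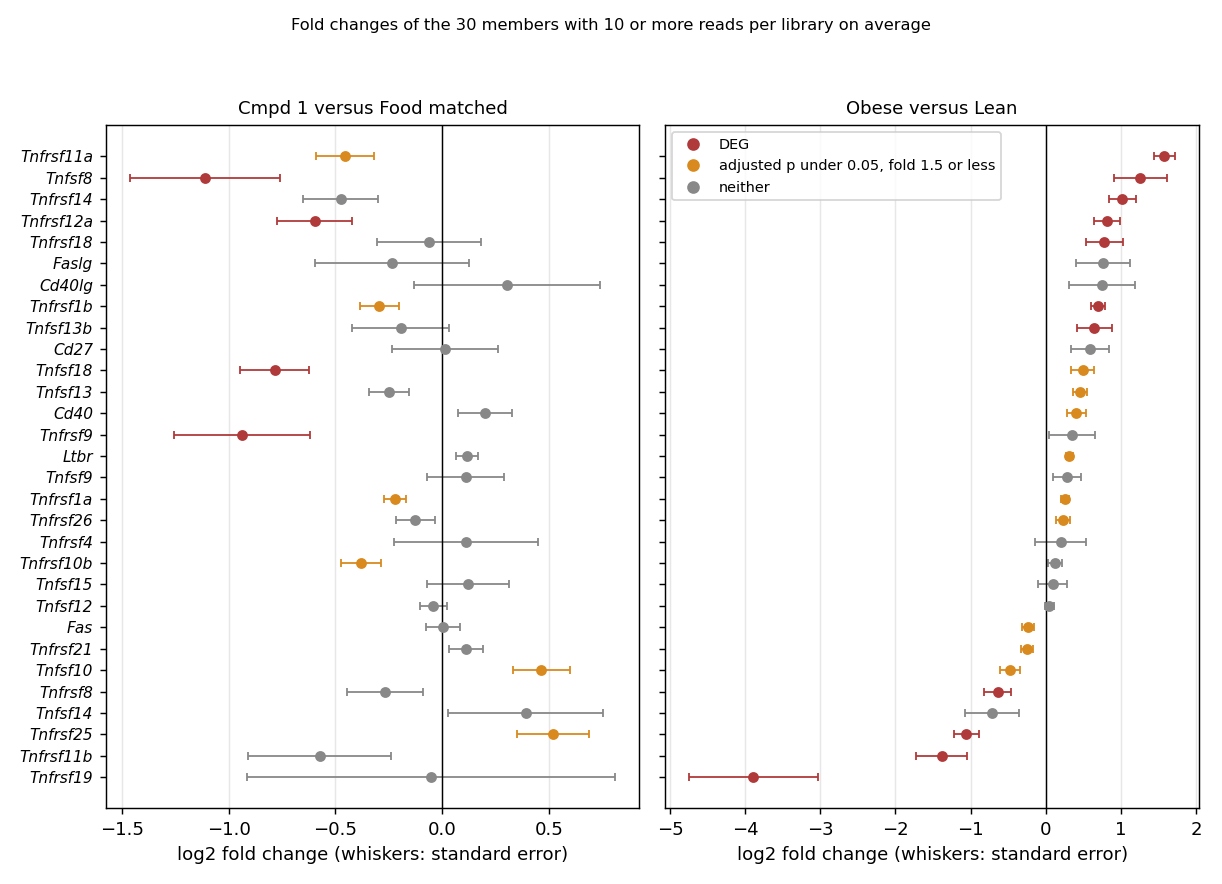
Log2 fold changes with standard errors of the 30 tested members that averaged 10 or more reads per library, for Cmpd 1 versus Food matched (left) and Obese versus Lean (right), ordered by the right panel; the x axes differ in range. Red marks DEGs, orange an adjusted p under 0.05 with a fold of 1.5 or less, and grey neither. The 4 red points on the left all lie below 0, and of the 11 on the right 7 lie above 0 and 4 below.

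Leukocyte and macrophage transcripts moved in both comparisons. All 5 genes of a general leukocyte list were DEGs higher in Obese than in Lean rats, and 4 of 5 were lower in Cmpd 1 than in Food matched rats. Its summed level was 313 to 507 RPKM in Cmpd 1, 513 to 750 RPKM in Food matched, 510 to 709 RPKM in Obese and 138 to 191 RPKM in Lean rats. Of 11 tested macrophage genes 7 were higher and 1 lower in Obese rats, and 6 were lower with Cmpd 1. The list of 12 summed to 1479 to 2255 RPKM in Cmpd 1, 2255 to 4326 RPKM in Food matched, 2078 to 3171 RPKM in Obese and 740 to 993 RPKM in Lean rats, with Marco at 0 in every library. Of 11 T cell genes 5 were higher in Obese rats and 2, Cd4 and Cd28, lower with Cmpd 1. The list summed to 149 to 207 RPKM in Cmpd 1, 228 to 302 RPKM in Food matched, 215 to 277 RPKM in Obese and 89.8 to 108 RPKM in Lean rats. For Cmpd 1 versus Food matched the median log2 fold change of its genes was −0.07, so the lower sum does not stand for the list as a whole. Of its genes, Cd3e, a chain of the T cell receptor complex, averaged 1.84 ± 0.498 RPKM in Cmpd 1, 1.64 ± 0.306 RPKM in Food matched, 1.86 ± 0.436 RPKM in Obese and 1.19 ± 0.255 RPKM in Lean rats (SD, n = 5). Cd3e was among the 5 DEGs higher in Obese rats. The listed Cd3d, Cd3g and Cd247 were not DEGs in either main comparison, so Cd3e does not stand for the list either. The 9 B cell genes summed to at most 2.96 RPKM in any library. Their part in the results on the family was not tested, and in bulk tissue fewer cells of a type and less RNA per cell cannot be told apart.

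The TNF receptors were measured well although their ligand was not. Tnfrsf1a encodes TNFR1, a death domain receptor found on nearly all cells, and Tnfrsf1b encodes TNFR2, which lacks a death domain and is found mainly on leukocytes and endothelium. Tnfrsf1a (chromosome 4, 157864969 to 157877633) was at 63.2, 57.5, 55.2, 56.9 and 57.5 RPKM in Cmpd 1 rats, 73.7, 69.0, 63.0, 68.3 and 64.3 RPKM in Food matched rats, 64.1, 62.0, 63.8, 68.7 and 57.9 RPKM in Obese rats and 54.7, 49.4, 52.4, 56.0 and 53.3 RPKM in Lean rats. All Obese values lay above all Lean values, and Food matched rat 1 was the highest of the 20 libraries. Its log2 fold change was 0.25 (standard error 0.05, edgeR adjusted p = 0.00054) for Obese versus Lean and −0.22 (standard error 0.05, edgeR adjusted p = 0.0051) for Cmpd 1 versus Food matched, both past the adjusted p and short of a 1.5-fold change. Tnfrsf1b (chromosome 5, 163136390 to 163167299) was at 22.8, 24.7, 25.0, 22.9 and 28.0 RPKM in Cmpd 1 rats, 31.9, 34.5, 31.3, 30.3 and 23.4 RPKM in Food matched rats, 22.6, 24.6, 28.6, 30.4 and 28.8 RPKM in Obese rats and 16.9, 15.4, 16.9, 17.0 and 17.4 RPKM in Lean rats. All 15 rats of the 3 obese groups lay above the 5 Lean rats, and the Cmpd 1 range overlapped that of Food matched rats through Food matched rat 5. Tnfrsf1b rose in Obese rats, with a log2 fold change of 0.69 (standard error 0.09, edgeR adjusted p = 2.6e-06), and was a DEG under every alternative tried. With Cmpd 1 it was at −0.29 (standard error 0.09, edgeR adjusted p = 0.023) on the log2 scale relative to Food matched rats, lower by less than 1.5-fold.

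The ratio of the 2 TNF receptors within a library does not depend on how libraries are scaled. Tnfrsf1b relative to Tnfrsf1a was at 0.360, 0.430, 0.452, 0.401 and 0.488 in Cmpd 1, 0.433, 0.499, 0.497, 0.443 and 0.363 in Food matched, 0.353, 0.397, 0.448, 0.442 and 0.498 in Obese and 0.308, 0.311, 0.322, 0.303 and 0.326 in Lean rats, as ratios of length-scaled counts. Every rat of the obese groups was above every Lean rat. The mean log2 difference was 0.44 for Obese versus Lean and 0.43 for Cmpd 1 versus Lean, each with p = 0.0079 in a two-sided exact permutation test over 252 splits, the smallest p that 5 against 5 rats allow, and 0.04 after adjustment over the 10 tests of 2 ratios and 5 comparisons. For Cmpd 1 versus Food matched it was −0.07 (exact permutation p = 0.53, adjusted 0.72), for Cmpd 1 versus Obese −0.0015 (p = 1, exact permutation) and for Food matched versus Obese 0.07 (exact permutation p = 0.58, adjusted 0.72). With any 1 Lean rat left out, which leaves fewer splits, the adjusted p of the first 2 was 0.079 (exact permutation), with differences of 0.42 to 0.45.

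**Figure D3:**
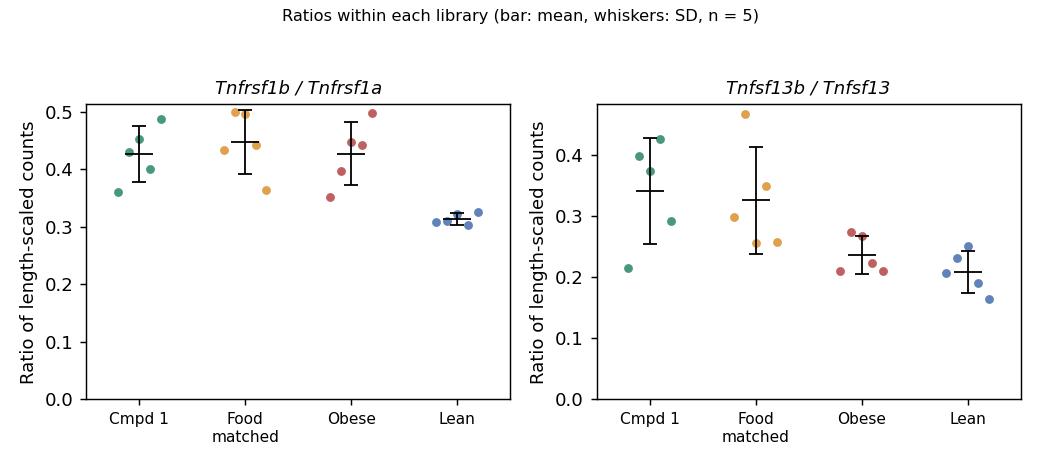
Ratio of length-scaled counts within each library for Tnfrsf1b to Tnfrsf1a (left) and Tnfsf13b to Tnfsf13 (right), with 1 point per rat, the mean as a bar and the SD as whiskers (n = 5 per group). On the left the Lean rats lie between 0.303 and 0.326 and all other rats above them, and on the right the Lean rats lie between 0.164 and 0.251 and overlap the Obese rats.

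Tnfrsf8, the next gene to Tnfrsf1b with a gap of 19.0 kb on chromosome 5, went the other way. It encodes CD30, a receptor of activated lymphocytes, and was at 0.983, 1.65, 1.43, 1.38 and 1.36 RPKM in Cmpd 1 rats, 1.54, 2.03, 1.46, 1.96 and 1.17 RPKM in Food matched rats, 1.29, 1.46, 1.52, 1.34 and 1.42 RPKM in Obese rats and 2.66, 1.37, 1.94, 2.81 and 2.20 RPKM in Lean rats. The Obese values were close together and Lean rat 2 lay among them, while the other 4 Lean rats were higher. Tnfrsf8 fell in Obese rats, with a log2 fold change of −0.64 (standard error 0.18, edgeR adjusted p = 0.0048), and lost the call without Lean rat 1 or Lean rat 4 and by limma-voom, which gave −0.58 (adjusted p = 0.013), a fold under 1.5. Without Lean rats 1, 2 and 5 it was −0.75 (edgeR adjusted p = 0.0052). Its ligand gene Tnfsf8 was expressed at a lower level, at 0.162, 0.196, 0.130, 0.183 and 0.188 RPKM in Cmpd 1 rats, 0.620, 0.323, 0.266, 0.440 and 0.212 RPKM in Food matched rats, 0.375, 0.239, 0.314, 0.545 and 0.205 RPKM in Obese rats and 0.0342, 0.148, 0.166, 0.184 and 0.164 RPKM in Lean rats. All Obese and Food matched rats lay above all Cmpd 1 and Lean rats, Lean rat 1 being the lowest. Tnfsf8 rose in Obese versus Lean rats by 1.26 (standard error 0.35, edgeR adjusted p = 0.0059) on the log2 scale and fell with Cmpd 1 versus Food matched, at −1.11 (standard error 0.35, edgeR adjusted p = 0.027). The first was 0.94 (edgeR adjusted p = 0.077) without Lean rats 1, 2 and 5, and the second lost its call without Food matched rat 1 or 4 or Cmpd 1 rat 1, 3 or 4, where values with 1 rat left out ran from −1.26 to −0.85. Ligand and receptor of this pair differed in opposite directions between Obese and Lean rats.

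The RANK gene had the largest fold change above 0 in Obese versus Lean rats among the 34 tested members. Tnfrsf11a encodes RANK, the receptor for Tnfsf11 on osteoclast precursors and other myeloid cells (chromosome 13, 25778317 to 25835957), and was at 6.997, 4.94, 4.26, 4.20 and 5.30 RPKM in Cmpd 1 rats, 7.96, 7.13, 7.24, 6.75 and 6.26 RPKM in Food matched rats, 7.02, 6.02, 7.65, 10.3 and 7.36 RPKM in Obese rats and 2.20, 2.42, 2.71, 2.98 and 2.57 RPKM in Lean rats. Every Lean rat was below every rat of the other groups, and the Cmpd 1 rats other than rat 1 were below all Food matched and Obese rats. The log2 fold change was 1.57 (standard error 0.14, edgeR adjusted p = 1.6e-08) for Obese versus Lean, a 2.98-fold difference, and 1.44 (edgeR adjusted p = 1.8e-05) without Lean rats 1, 2 and 5. With Cmpd 1 it was −0.46 (standard error 0.14, edgeR adjusted p = 0.02) relative to Food matched and −0.57 (standard error 0.14, edgeR adjusted p = 0.0093) relative to Obese rats, both under 1.5-fold. Tnfrsf11b encodes osteoprotegerin, a secreted decoy receptor that binds Tnfsf11 and Tnfsf10, and its gene was at 3.83, 12.3, 9.70, 11.6 and 11.9 RPKM in Cmpd 1 rats, 20.2, 23.8, 12.6, 9.59 and 7.03 RPKM in Food matched rats, 6.44, 12.5, 8.72, 7.03 and 6.97 RPKM in Obese rats and 35.4, 24.8, 14.1, 18.5 and 15.8 RPKM in Lean rats. Spread was wide within groups, with Cmpd 1 rat 1 the lowest of all and Food matched rats 1 and 2 inside the Lean range. Between Obese and Lean rats the log2 fold change was −1.38 (standard error 0.34, edgeR adjusted p = 0.002), with no overlap of the ranges. For Cmpd 1 versus Food matched it was −0.57 (standard error 0.33, edgeR adjusted p = 0.24). Without Lean rats 1, 2 and 5 the Obese versus Lean value was −0.96 (edgeR adjusted p = 0.07).

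Tnfrsf12a, the receptor for TWEAK that is induced in injured tissue, was the most abundant of the 4 DEGs lower with Cmpd 1 than in Food matched rats. Its gene lies on chromosome 10, 12995904 to 12997930 and was at 16.2, 9.52, 12.4, 9.64 and 13.2 RPKM in Cmpd 1 rats, 28.6, 15.9, 17.98, 15.1 and 15.0 RPKM in Food matched rats, 17.2, 15.3, 15.4, 21.2 and 13.6 RPKM in Obese rats and 9.82, 9.32, 8.17, 11.2 and 8.56 RPKM in Lean rats. Obese rats all lay above Lean rats, and Food matched rat 1 stood above every other library. Tnfrsf12a rose in Obese versus Lean rats (0.81 on the log2 scale, standard error 0.18, edgeR adjusted p = 0.0007) and fell with Cmpd 1 versus Food matched (−0.60, standard error 0.17, edgeR adjusted p = 0.017). The second value sits just past the fold threshold of 0.585 and was −0.39 without Food matched rat 1, and the call was also lost without Cmpd 1 rat 2 or rat 4, by limma-voom and with library size alone as the scale. The ligand gene Tnfsf12 did not pass the test over the 4 groups (adjusted p = 0.12, edgeR F test) and averaged 35.1 ± 3.36 RPKM in Cmpd 1, 36.1 ± 2.92 RPKM in Food matched, 33.3 ± 1.67 RPKM in Obese and 32.2 ± 1.69 RPKM in Lean rats (SD, n = 5).

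Tnfsf18 was the member with the smallest adjusted p under Cmpd 1. It encodes the ligand of GITR, a co-stimulatory receptor of T cells, lies on chromosome 13, 79378733 to 79388498 and was at 1.16, 1.70, 1.29, 1.12 and 1.46 RPKM in Cmpd 1 rats, 2.57, 1.93, 2.499, 2.503 and 2.13 RPKM in Food matched rats, 2.21, 2.90, 2.81, 2.29 and 2.29 RPKM in Obese rats and 2.10, 1.82, 1.12, 2.23 and 1.64 RPKM in Lean rats. All Cmpd 1 rats were below all Food matched and all Obese rats, and the Lean range overlapped all 3. The log2 fold change was −0.78 (standard error 0.16, edgeR adjusted p = 0.0017) for Cmpd 1 versus Food matched and −0.89 (standard error 0.16, edgeR adjusted p = 0.0021) for Cmpd 1 versus Obese, folds of 1.72 and 1.85. The 2 calls held under every alternative, with values between −0.88 and −0.73 for the first and between −0.99 and −0.83 for the second. For Obese versus Lean it was 0.49 (standard error 0.16, edgeR adjusted p = 0.016), under 1.5-fold. The receptor gene Tnfrsf18 was at 0.273, 0.427, 0.376, 0.378 and 0.390 RPKM in Cmpd 1 rats, 0.333, 0.340, 0.320, 0.416 and 0.517 RPKM in Food matched rats, 0.300, 0.520, 0.259, 0.445 and 0.435 RPKM in Obese rats and 0.145, 0.267, 0.288, 0.221 and 0.214 RPKM in Lean rats, from 9 to 37 reads per library. Obese rat 3 lay within the Lean range and the others above it. Tnfrsf18 rose in Obese versus Lean rats by 0.78 (standard error 0.25, edgeR adjusted p = 0.014) on the log2 scale, and without Lean rats 1, 2 and 5 the value was 0.63 (edgeR adjusted p = 0.16). Its value for Cmpd 1 versus Food matched was −0.06 (standard error 0.24, edgeR adjusted p = 0.9).

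Tnfrsf9 encodes CD137, a co-stimulatory receptor of activated T cells and of some myeloid cells, and its counts were low, at 9 to 60 reads per library. It was at 0.150, 0.157, 0.134, 0.233 and 0.205 RPKM in Cmpd 1 rats, 0.441, 0.454, 0.317, 0.232 and 0.227 RPKM in Food matched rats, 0.239, 0.330, 0.296, 0.285 and 0.412 RPKM in Obese rats and 0.103, 0.264, 0.162, 0.402 and 0.286 RPKM in Lean rats. The Cmpd 1 range overlapped the Food matched range by a small margin, through Cmpd 1 rat 4 and Food matched rats 4 and 5. Tnfrsf9 did not pass the test over the 4 groups (adjusted p = 0.065, edgeR F test). It fell with Cmpd 1 versus Food matched, with a log2 fold change of −0.94 (standard error 0.32, edgeR adjusted p = 0.039). The call was lost without any of 7 of the 10 rats compared (values with 1 rat left out ran from −1.04 to −0.80) and by limma-voom (−0.90, adjusted p = 0.054). Its ligand gene Tnfsf9 averaged 2.61 ± 0.361 RPKM in Cmpd 1, 2.42 ± 0.467 RPKM in Food matched, 2.09 ± 0.304 RPKM in Obese and 1.72 ± 0.496 RPKM in Lean rats (SD, n = 5) and had a log2 fold change of 0.11 (standard error 0.18, edgeR adjusted p = 0.73) for Cmpd 1 versus Food matched.

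**Figure D4:**
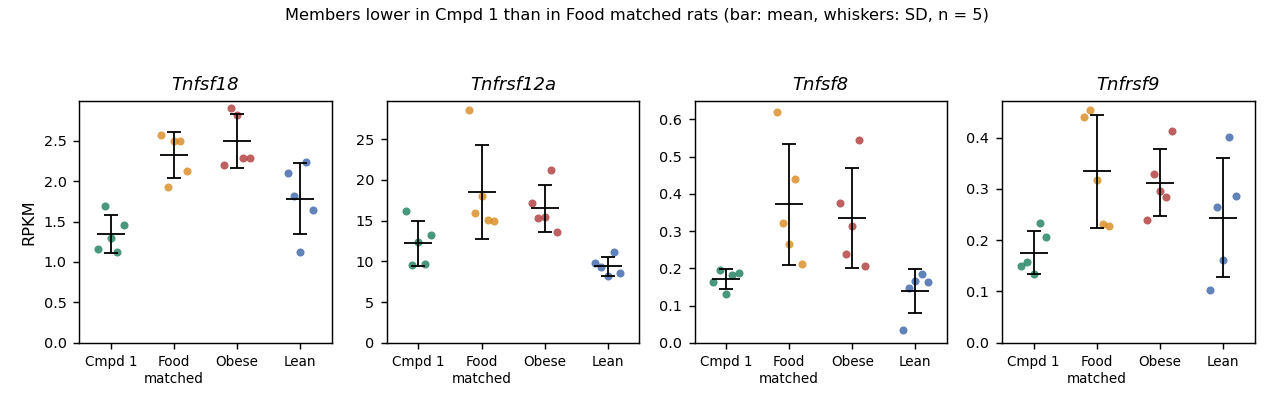
RPKM of Tnfsf18, Tnfrsf12a, Tnfsf8 and Tnfrsf9 in each rat of the Cmpd 1, Food matched, Obese and Lean groups, with 1 point per rat, the mean as a bar and the SD as whiskers (n = 5). In Tnfsf18 and Tnfsf8 all Cmpd 1 points lie below all Food matched points, and in Tnfrsf12a the Food matched point at 28.6 RPKM stands apart.

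Among the other co-stimulatory members, Tnfrsf14 rose in Obese rats. It encodes HVEM, which binds Tnfsf14, lymphotoxin α and the inhibitory receptor BTLA, and was at 1.501, 1.96, 1.32, 1.43 and 1.60 RPKM in Cmpd 1 rats, 1.58, 1.84, 1.67, 2.85 and 2.92 RPKM in Food matched rats, 2.24, 2.10, 2.48, 2.55 and 1.79 RPKM in Obese rats and 0.952, 0.935, 1.37, 1.22 and 1.03 RPKM in Lean rats. All Obese and Food matched rats were above all Lean rats, and Food matched rats 4 and 5 were the highest. The log2 fold change was 1.02 (standard error 0.18, edgeR adjusted p = 8.1e-05) for Obese versus Lean, held under every alternative (0.79 to 1.12), and was −0.48 (standard error 0.18, edgeR adjusted p = 0.058) for Cmpd 1 versus Food matched. Cd40, the receptor through which T cells activate B cells, dendritic cells and macrophages, was at 12.4, 11.4, 9.04, 10.7 and 11.6 RPKM in Cmpd 1 rats, 10.1, 6.90, 9.83, 9.46 and 11.7 RPKM in Food matched rats, 12.8, 9.98, 9.79, 10.02 and 9.51 RPKM in Obese rats and 7.87, 5.83, 8.70, 8.39 and 8.53 RPKM in Lean rats. Obese rats lay above Lean rats, with Obese rat 1 apart at the top and Lean rat 2 apart at the bottom. Its log2 fold change was 0.41 (standard error 0.13, edgeR adjusted p = 0.012) for Obese versus Lean, under 1.5-fold, and 0.20 (standard error 0.13, edgeR adjusted p = 0.29) for Cmpd 1 versus Food matched. Cd40lg, Cd27, Tnfrsf4 and Tnfsf14 averaged 0.142 to 0.972 RPKM over the groups and passed no test. Their log2 fold changes for Obese versus Lean were 0.75, 0.59, 0.20 and −0.71, with standard errors of 0.25 to 0.44.

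The B cell survival ligands Tnfsf13b (BAFF) and Tnfsf13 (APRIL) were expressed although their receptor genes Tnfrsf13b, Tnfrsf13c and Tnfrsf17 had 32, 47 and 15 reads over all libraries. Both ligands are also made by myeloid cells. Tnfsf13b was at 3.65, 9.53, 6.41, 7.24 and 4.99 RPKM in Cmpd 1 rats, 6.69, 11.6, 5.41, 7.64 and 4.95 RPKM in Food matched rats, 4.11, 5.25, 6.19, 4.86 and 4.21 RPKM in Obese rats and 3.56, 3.40, 3.39, 3.06 and 2.35 RPKM in Lean rats. Every Obese rat exceeded every Lean rat, and Cmpd 1 and Food matched rats varied most, rat 2 being the highest in both. For Obese versus Lean the log2 fold change was 0.64 (standard error 0.23, edgeR adjusted p = 0.026), a call that limma-voom (0.64, adjusted p = 0.059) and leaving out Lean rat 5 or Obese rat 3 ended, and 0.62 (edgeR adjusted p = 0.15) without Lean rats 1, 2 and 5. Tnfsf13b overlaps an annotated gene on the opposite strand, and whether reads were counted by strand is not given in the sources used here. Tnfsf13 averaged 18.4 ± 3.06 RPKM in Cmpd 1, 21.9 ± 2.02 RPKM in Food matched, 20.8 ± 1.67 RPKM in Obese and 15.2 ± 1.49 RPKM in Lean rats (SD, n = 5), with a log2 fold change of 0.45 (standard error 0.09, edgeR adjusted p = 0.00045) for Obese versus Lean. The ratio of Tnfsf13b to Tnfsf13 averaged 0.341 ± 0.0862 in Cmpd 1, 0.325 ± 0.0880 in Food matched, 0.237 ± 0.0314 in Obese and 0.209 ± 0.0340 in Lean rats (SD, n = 5). No comparison of this ratio passed after adjustment: the smallest exact permutation p was 0.024 for Cmpd 1 versus Lean (mean log2 difference 0.68, adjusted 0.079), and for Cmpd 1 versus Food matched it was 0.79 (difference 0.06, adjusted 0.88).

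Death receptors did not move together. Fas, which starts apoptosis when bound by Faslg, was at 4.27, 5.28, 5.38, 4.39 and 4.42 RPKM in Cmpd 1 rats, 4.77, 4.75, 4.22, 4.94 and 5.01 RPKM in Food matched rats, 5.00, 5.68, 5.46, 4.97 and 5.16 RPKM in Obese rats and 5.69, 5.51, 7.04, 6.54 and 6.22 RPKM in Lean rats. Lean rats had the higher values, overlapping Obese rats through Lean rat 2 and Obese rat 2. The log2 fold change was −0.24 (standard error 0.08, edgeR adjusted p = 0.017) for Obese versus Lean and 0.00 (standard error 0.08, edgeR adjusted p = 0.98) for Cmpd 1 versus Food matched. Tnfrsf25, the death domain receptor DR3 that binds Tnfsf15, was at 4.05, 3.96, 3.52, 3.75 and 3.96 RPKM in Cmpd 1 rats, 2.07, 2.89, 1.99, 2.69 and 3.79 RPKM in Food matched rats, 2.70, 3.00, 2.71, 1.77 and 2.35 RPKM in Obese rats and 7.16, 4.24, 4.56, 4.75 and 5.36 RPKM in Lean rats. Every Lean rat was above every other rat, and Cmpd 1 rats were above all Obese rats and above all Food matched rats other than rat 5. Its log2 fold change was −1.06 (standard error 0.17, edgeR adjusted p = 3.2e-05) for Obese versus Lean, 0.52 (standard error 0.17, edgeR adjusted p = 0.033) for Cmpd 1 versus Food matched and 0.62 (standard error 0.17, edgeR adjusted p = 0.02) for Cmpd 1 versus Obese. The first was −0.89 (edgeR adjusted p = 0.0018) without Lean rats 1, 2 and 5, and the last was a DEG except without Obese rat 4 (0.51). Tnfsf15 did not pass the test over the 4 groups (adjusted p = 0.82, edgeR F test).

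The TRAIL ligand gene Tnfsf10 passed the adjusted p in both main comparisons, in opposite directions. It averaged 29.6 ± 2.32 RPKM in Cmpd 1, 21.5 ± 5.35 RPKM in Food matched, 25.0 ± 4.27 RPKM in Obese and 34.7 ± 3.34 RPKM in Lean rats (SD, n = 5). Its log2 fold change was −0.47 (standard error 0.13, edgeR adjusted p = 0.0061) for Obese versus Lean and 0.46 (standard error 0.13, edgeR adjusted p = 0.016) for Cmpd 1 versus Food matched. Its receptor gene Tnfrsf10b had −0.38 (standard error 0.10, edgeR adjusted p = 0.0066) for Cmpd 1 versus Food matched, with all Cmpd 1 rats (1.87 to 2.28 RPKM) below all Food matched rats (2.44 to 3.29 RPKM). For Obese versus Lean the receptor was at 0.13 (standard error 0.10, edgeR adjusted p = 0.3). None of these reached 1.5-fold. Tnfrsf21, the death domain receptor DR6, was at −0.25 (standard error 0.08, edgeR adjusted p = 0.012) for Obese versus Lean, and Faslg, at 7 to 50 reads per library, at 0.76 (standard error 0.36, edgeR adjusted p = 0.091).

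Ltbr, the receptor for membrane lymphotoxin and Tnfsf14 that guides lymphoid tissue formation, was the most abundant member. It was at 81.1, 74.1, 64.8, 76.6 and 75.5 RPKM in Cmpd 1 rats, 70.6, 62.9, 68.5, 70.4 and 71.0 RPKM in Food matched rats, 69.1, 69.9, 67.4, 71.8 and 67.2 RPKM in Obese rats and 57.5, 52.2, 54.7, 56.6 and 56.9 RPKM in Lean rats. Every rat of the obese groups was above every Lean rat. Its log2 fold change was 0.31 (standard error 0.05, edgeR adjusted p = 3.8e-05) for Obese versus Lean, 0.12 (standard error 0.05, edgeR adjusted p = 0.12) for Cmpd 1 versus Food matched and 0.42 (standard error 0.05, edgeR adjusted p = 2.4e-06) for Cmpd 1 versus Lean. Tnfrsf19, or TROY, a receptor of the developing nervous system and skin, was almost absent outside Lean rats. It was at 0, 0.0222, 0.0110, 0.0324 and 0.0372 RPKM in Cmpd 1 rats, 0.00974, 0.0582, 0, 0.0108 and 0.0196 RPKM in Food matched rats, 0.0116, 0.00452, 0.0277, 0.0143 and 0 RPKM in Obese rats and 0.0932, 0.486, 0.0879, 0.146 and 0.0606 RPKM in Lean rats, from 0 to 8 reads per library in Cmpd 1, 0 to 17 in Food matched, 0 to 6 in Obese and 15 to 130 in Lean rats. Lean rats all lay above the other groups, and Lean rat 2, the library with the most Epcam, held 130 of the 214 Lean reads. Tnfrsf19 fell in Obese versus Lean rats, with a log2 fold change of −3.89 (standard error 0.85, edgeR adjusted p = 0.00077), which was −3.03 (edgeR adjusted p = 0.0042) without Lean rat 2 and −3.30 (edgeR adjusted p = 0.0088) without Lean rats 1, 2 and 5. Tnfrsf26 ranged from 4.38 to 6.07 RPKM, and its log2 fold change for Obese versus Lean was 0.23 (standard error 0.09, edgeR adjusted p = 0.047).

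**Figure D5:**
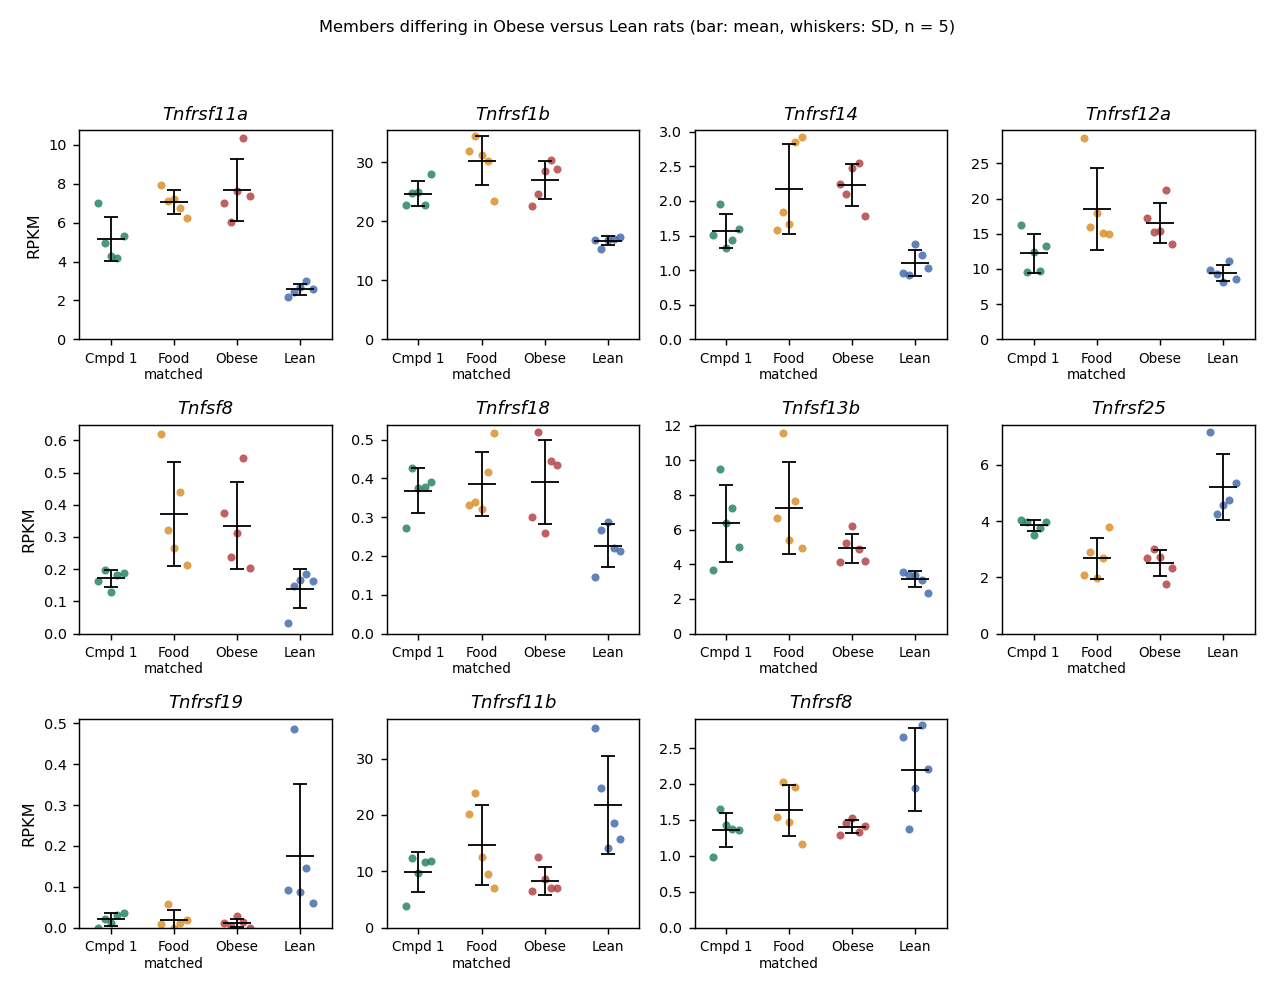
RPKM of the 7 members higher and the 4 lower in Obese than in Lean rats, in each rat of the Cmpd 1, Food matched, Obese and Lean groups, with 1 point per rat, the mean as a bar and the SD as whiskers (n = 5). In Tnfrsf11a and Tnfrsf1b all Lean points lie below all other points, and in Tnfrsf19 and Tnfrsf25 all Lean points lie above them.

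Food restriction alone and the drug set against unrestricted feeding gave few calls. In Food matched versus Obese rats 0 members and 0.0% of all genes were DEGs by edgeR. At an unadjusted p under 0.05 there were 2 members (Tnfrsf11b and Tnfsf13b) and 1887 genes, 10.7% of those tested. limma-voom and DESeq2 also called 0 members. The log2 fold changes of the pair were 0.81 (standard error 0.34, edgeR adjusted p = 0.38) for Tnfrsf11b and 0.56 (standard error 0.23, edgeR adjusted p = 0.37) for Tnfsf13b. In Cmpd 1 versus Obese rats 2 members were DEGs, beside 3.53% of all genes, Tnfsf18 lower (beside 2.8% of all genes lower) and Tnfrsf25 higher (beside 0.731% higher). At an adjusted p under 0.05 and any fold, 2 members were lower (Tnfsf18 and Tnfrsf11a) and 1 higher, beside 6.93% and 7.09% of all genes. DESeq2 and the fit without Lean rats 1 and 2 called 2 lower, and the fit of only the 10 libraries compared called 3. Cmpd 1 versus Food matched and Cmpd 1 versus Obese share the Cmpd 1 rats. Tnfsf8 and Tnfrsf9, with no overlap between Cmpd 1 and Obese rats, had log2 fold changes of −0.96 (standard error 0.35, edgeR adjusted p = 0.075) and −0.84 (standard error 0.32, edgeR adjusted p = 0.086) for Cmpd 1 versus Obese.

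Set against Lean rats, 7 members were DEGs in Cmpd 1 rats, 4 higher and 3 lower, beside 16.6% of all genes (7.47% higher and 9.11% lower). Tnfrsf11a (1.00, standard error 0.14, edgeR adjusted p = 1.1e-05) and Tnfsf13b (1.01, standard error 0.23, edgeR adjusted p = 0.0016) were higher and held without Lean rats 1, 2 and 5. Tnfrsf18 (0.69, standard error 0.25, edgeR adjusted p = 0.034) and Tnfsf9 (0.60, standard error 0.18, edgeR adjusted p = 0.012) were higher too, and without those rats were at 0.53 (edgeR adjusted p = 0.28) and 0.47 (edgeR adjusted p = 0.15). The Tnfrsf18 call was lost without any of 7 of the 10 rats compared and the Tnfsf9 call without any of 5. At an adjusted p under 0.05 and any fold, 9 members were higher and 5 lower, beside 20.3% and 18.6% of all genes. Tnfrsf8 (−0.69, standard error 0.18, edgeR adjusted p = 0.0037), Tnfrsf19 (−3.12, standard error 0.81, edgeR adjusted p = 0.0045) and Tnfrsf11b (−1.14, standard error 0.34, edgeR adjusted p = 0.01) were lower. Without those Lean rats Tnfrsf11b was at −0.73 (edgeR adjusted p = 0.21) and Tnfrsf19 at −2.54 (edgeR adjusted p = 0.046), and without Lean rat 2 alone Tnfrsf19 was at −2.26 (edgeR adjusted p = 0.028). Of the 11 Obese versus Lean DEGs, Tnfrsf1b (0.57, standard error 0.09, edgeR adjusted p = 5.6e-05), Tnfrsf14 (0.50, standard error 0.18, edgeR adjusted p = 0.03) and Tnfrsf25 (−0.44, standard error 0.17, edgeR adjusted p = 0.045) passed the adjusted p in Cmpd 1 versus Lean rats with a fold under 1.5. Tnfrsf12a (0.38, standard error 0.18, edgeR adjusted p = 0.098) and Tnfsf8 (0.30, standard error 0.36, edgeR adjusted p = 0.55) did not pass it. These comparisons share Lean rats with Obese versus Lean.

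Several genes that carry the signal inside the cell were higher in Obese than in Lean rats, most of them by less than 1.5-fold. Of 45 tested genes for adaptors, kinases, NF-kappa B subunits, feedback inhibitors, death effectors and the proteases that release ligands, 24 were higher and 3 lower at an adjusted p under 0.05, beside 23.7% and 24.5% of all genes, and 7 were DEGs, all higher, beside 11.3% of all genes. With Cmpd 1 versus Food matched 3 were higher and 10 lower, beside 11.4% each of all genes, and 2 were DEGs, both lower, beside 4.65% of all genes. The median log2 fold changes were 0.16 and −0.08. Ripk3, the kinase that triggers necroptosis, averaged 10.5 ± 1.80 RPKM in Cmpd 1, 16.7 ± 1.95 RPKM in Food matched, 14.7 ± 2.59 RPKM in Obese and 6.16 ± 0.804 RPKM in Lean rats (SD, n = 5), with no overlap in either comparison. Its log2 fold change was 1.26 (standard error 0.13, edgeR adjusted p = 1.1e-07) for Obese versus Lean and −0.66 (standard error 0.13, edgeR adjusted p = 0.0011) for Cmpd 1 versus Food matched. Bid, which carries the death receptor signal to mitochondria, was the other DEG in both, at 0.78 (standard error 0.09, edgeR adjusted p = 9.8e-07) for Obese versus Lean and −0.69 (standard error 0.09, edgeR adjusted p = 8.8e-05) for Cmpd 1 versus Food matched. The DEGs of Obese versus Lean alone were Map3k14, the kinase NIK of the noncanonical NF-kappa B route (0.68, standard error 0.09, edgeR adjusted p = 2.1e-06), the subunit gene Rel (0.64, standard error 0.10, edgeR adjusted p = 2.7e-05), the inhibitors Nfkbie (0.61, standard error 0.07, edgeR adjusted p = 4.1e-07) and Tnfaip3 (0.59, standard error 0.07, edgeR adjusted p = 5.4e-07), and Adam17, the protease that releases TNF from the membrane (0.59, standard error 0.05, edgeR adjusted p = 2.5e-08). In Cmpd 1 versus Food matched rats Tnfaip3 was at −0.32 (standard error 0.07, edgeR adjusted p = 0.002) and Adam17 at −0.24 (standard error 0.05, edgeR adjusted p = 0.0037), with no overlap between the groups. Of 7 family genes outside the naming rule, the receptor gene Relt was higher in Obese than in Lean rats (1.61, standard error 0.12, edgeR adjusted p = 2.7e-09) and the ligand gene Eda lower (−1.07, standard error 0.16, edgeR adjusted p = 1.6e-05), and neither was a DEG for Cmpd 1 versus Food matched.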

How the data were processed

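Total RNA of iWAT was made into stranded mRNA libraries by the authors, who mapped reads with STAR, to rn6 by the methods and with STAR 2.5.2 and GRCh38, a human build, by the submitters' processing notes, and summarised reads that mapped to a single place by gene, using featureCounts (Subread 1.5.1). The authors deposited these as unnormalized counts, 32545 rows of genes, and the table also gives positions and gene lengths. The coordinates are given as rn6.

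From these counts, edgeR 4.0.16 (R 4.3.3) fitted 1 quasi-likelihood model of the 4 groups to the 17653 genes that had a read in more than 10 of the 20 libraries, with TMM scaling, as the study's thresholds define DEGs (fold over 1.5, adjusted p under 0.05). The standard error is the log2 fold change divided by the root of F. RPKM used the deposited length and the TMM-scaled library size. Ratios of 2 genes were compared by exact permutation tests. The model was tested on simulated data first. Per-rat values are given for DEGs of the 2 main comparisons and for Tnf (as reads), Tnfrsf1a, Tnfrsf1b, Fas, Cd40, Tnfsf13b, Tnfrsf11b and Ltbr, and in each pathway list at most 4 DEGs are named, by adjusted p. The members, lists and tests were chosen with earlier results of these data known. Depth per library was 31716457 to 74784655 reads, and values from few reads carry counting error beside the spread between rats. Alternatives were limma-voom (limma 3.58.1), DESeq2 1.42.0, other scalings and filters, a replicate block, leaving out rats, and, added after seeing the data, leaving out Lean rats 1, 2 and 5 together and summing the 2 rows of Tnf and of Ltb. Promoter sequences came from RefSeq (GRCr8).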

Additional observations from a re-analysis of the deposited data

Results flagged for a closer look

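Over 18 tested members, those called in a comparison or given rat by rat, and 2 ratios, 7 values stood apart from the other 4 rats of their group by Dixon's test. With 4 groups each, 80 groups were examined, and chance marks about 1 in 20, or 4. Tnfrsf12a was at 28.6 RPKM in Food matched rat 1, the next highest of that group being 17.98 RPKM. Cd40 was at 12.8 RPKM in Obese rat 1, with the next at 10.02 RPKM, and at 5.83 RPKM in Lean rat 2, with the next lowest at 7.87 RPKM. Tnfrsf1a was at 63.2 RPKM in Cmpd 1 rat 1, with the next at 57.5 RPKM. In Lean rat 2 Tnfrsf1b was at 15.4 RPKM, with the next lowest at 16.9 RPKM, and Tnfrsf19 at 0.486 RPKM, with the next highest at 0.147 RPKM. Tnfsf8 was at 0.0342 RPKM in Lean rat 1, with the next lowest at 0.148 RPKM. Lean rats 1 and 2 are the libraries with skeletal muscle transcripts, and the part of those transcripts in these values was not tested.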

How the results depend on the processing

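The DEG calls of single members were recomputed under every alternative. Of 24 called member results, 12 kept their call under every one, and no called member result changed direction. With no fold threshold, members at an adjusted p under 0.05 numbered 13 higher and 7 lower for Obese versus Lean, 2 and 8 for Cmpd 1 versus Food matched, 9 and 5 for Cmpd 1 versus Lean, and 2 lower for Cmpd 1 versus Obese. Without Lean rats 1, 2 and 5 the counts higher were 4 for Obese versus Lean and 2 for Cmpd 1 versus Lean. Members lower in Cmpd 1 than in Food matched rats were 2 by limma-voom, and in Cmpd 1 versus Obese 2 by DESeq2, with no filter on low counts, without Lean rats 1 and 2 and without Lean rats 1, 2 and 5, and 3 with only the libraries compared. Leaving out each rat in turn gave 0 to 1 higher and 1 to 4 lower for Cmpd 1 versus Food matched, 0 to 1 higher and 1 to 3 lower for Cmpd 1 versus Obese, and 2 to 5 higher for Cmpd 1 versus Lean. These counts are given without the share of all genes called in the same fit, and a smaller count may only reflect lost power.

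For the ratio of Tnfrsf1b to Tnfrsf1a the mean log2 difference ranged, with each rat left out, from 0.38 to 0.50 for Obese versus Lean, 0.38 to 0.49 for Cmpd 1 versus Lean, −0.0684 to 0.0574 for Cmpd 1 versus Obese and −0.0015 to 0.14 for Food matched versus Obese. Without Lean rats 1 and 2 it was 0.42 for both comparisons with Lean, with adjusted p of 0.095 for Obese versus Lean and 0.079 for Cmpd 1 versus Lean (exact permutation). Leaving out these rats reduces the splits and raises the smallest p the test can give, so these adjusted p cannot show whether the ratio is unstable. For Tnfsf13b to Tnfsf13 the ranges were −0.0262 to 0.22 for Cmpd 1 versus Food matched, 0.40 to 0.65 for Cmpd 1 versus Obese and 0.59 to 0.84 for Cmpd 1 versus Lean, and the last 2 passed without Cmpd 1 rat 1.

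A fit with the rat number as a block was run, although the numbers only count rats. Over 25 same-numbered pairs the correlation of deviations from the group means was −0.10 to 0.15, and 3 pairs correlated best with their own number. The block ended the call of Tnfrsf12a for Cmpd 1 versus Food matched (−0.58) and left 3 members lower there. With the block, sign changes over 5 pairs gave the ratio of Tnfrsf1b to Tnfrsf1a differences of 0.44 (Obese versus Lean) and 0.43 (Cmpd 1 versus Lean), where 5 pairs cannot pass the adjustment. It changed no other member's call. None of the 4 tested members under 10 reads per library passed a test, and the doubled rows of Tnf, Ltb and Tnfsf11 cannot be read as levels. Summing the rows of Tnf and of Ltb changed no count.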

Other observations

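Tnfrsf11b and Tnfsf13b, the 2 members with an unadjusted p under 0.05 between Food matched and Obese rats, were looked at together after their values had been seen, beside Pi16, a marker of adipose progenitors in mouse. In the Cmpd 1 group rat 1 was the lowest and rat 2 the highest for all 3 genes. Cmpd 1 rat 1 had 3.83 RPKM of Tnfrsf11b, 3.65 RPKM of Tnfsf13b and 42.5 RPKM of Pi16, and Cmpd 1 rat 2 had 12.3, 9.53 and 123 RPKM. Food matched rat 2 was the highest of its group for all 3, with 23.8 RPKM of Tnfrsf11b, 11.6 RPKM of Tnfsf13b and 146 RPKM of Pi16, where the other Food matched rats had 7.03 to 20.2, 4.95 to 7.64 and 58.7 to 70.0 RPKM. Among Lean rats, rat 1 was the highest for Tnfrsf11b (35.4 RPKM) and Pi16 (220 RPKM). In Obese rats the 2 members parted at the top, with rat 2 highest for Tnfrsf11b (12.5 RPKM) and rat 3 for Tnfsf13b (6.19 RPKM). Obese rat 1 was the lowest for both (6.44 and 4.11 RPKM). These are values of single rats chosen after they were seen, with no test. Pi16 is 1 of 7 tested genes on a list for adipose progenitors and fibroblasts. That list was split in Obese versus Lean rats, where 3 of its genes were DEGs upward and 3 downward. Pi16 therefore does not stand for the list, and the rat by rat values of the list's other genes are not given here.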
